A study of Mus musculus with 6 samples.

Results

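The genes described here are 10 transcripts of the NF-κB system in EMT6 cells, a mouse mammary carcinoma line. They are the genes of 4 NF-κB subunits (Nfkb1, Nfkb2, Rela and Relb), of 3 proteins with IκB-type repeats (Nfkbia, Nfkbie and Nfkbiz), of the ubiquitin-editing enzyme Tnfaip3, of the ubiquitin ligase Birc3 and of the secreted pentraxin Ptx3. They were chosen from measured values of the comparison described here, and were matched by gene identifier in a table of 53465 genes. All 10 were found, and all 10 were among the 14217 genes that passed the filter on low counts. Because the same comparison had been used to choose them, their differences between groups are given as a description, with no p-value. How many passed the threshold of the fit over all genes is stated once, beside the share of all genes that did, and nothing is read from it.

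Polyadenylated RNA was sequenced in 6 samples. In P VITRO (3 samples), cells had been kept with an isotype control antibody. In PTR VITRO (3 samples), they had been kept with anti-PD-L1, which per the study's methods was clone 80 for EMT6. Both antibodies were given at 0.5 μg/ml for more than 4 weeks, in RPMI with 5% serum. The labels name no separate cultures, and the study treats replicates as technical where nothing else is said, so spreads and p-values compare libraries and do not cover separately treated cultures. PD-L1 is a ligand on the surface of tumor cells which, by binding PD-1, dampens T-cell responses.

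NF-κB proteins are transcription factors that act as dimers. In resting cells, inhibitors of the IκB family hold the dimers in the cytoplasm. When receptors for tumor necrosis factor, interleukin-1 or microbial products are engaged, IκB kinases mark these inhibitors for degradation, the dimers enter the nucleus, and target genes are transcribed. Several of the targets encode the inhibitors themselves, the precursor subunits and Tnfaip3, so the pathway switches on its own brakes. Tumor cell lines often keep part of this program active in culture, with chemokines, growth factors of myeloid cells and acute-phase proteins among its products.

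Promoter windows were read for a short sequence motif. Windows of 250 bases before annotated RefSeq starts (GRCm38.p6) were at hand for 7 of the 10 genes. They were searched on both strands for GGGNNNTTCC, a short form of the κB element. This form was settled on after several forms had been tried with these windows in view. It was present for 4 of the 7 genes, in 7 of their 10 windows in all, and in 4.65% of all 32851 windows of the same length. As the form was settled on with the members' windows in view, no enrichment is read from these shares. The windows of Nfkbia and Nfkbie, as genes with a match, and of Ptx3, as the gene with the highest level, are printed 5′ to 3′ on the strand of the gene, ending at the base before the start, with the match in capitals. They lie at chr12:55492648-55492897 (minus strand), chr17:45555450-45555699 (plus strand) and chr3:66219637-66219886 (plus strand).
Nfkbia: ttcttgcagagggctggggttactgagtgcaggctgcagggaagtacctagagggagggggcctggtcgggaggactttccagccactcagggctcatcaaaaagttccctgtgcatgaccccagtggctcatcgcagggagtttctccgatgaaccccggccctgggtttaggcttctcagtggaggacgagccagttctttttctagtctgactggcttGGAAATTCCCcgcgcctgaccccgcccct
Nfkbie: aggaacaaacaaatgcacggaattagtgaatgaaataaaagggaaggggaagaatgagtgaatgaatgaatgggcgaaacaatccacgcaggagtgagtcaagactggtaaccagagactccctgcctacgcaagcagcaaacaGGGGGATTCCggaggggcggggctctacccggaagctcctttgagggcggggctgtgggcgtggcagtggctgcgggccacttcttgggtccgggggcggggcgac
Ptx3: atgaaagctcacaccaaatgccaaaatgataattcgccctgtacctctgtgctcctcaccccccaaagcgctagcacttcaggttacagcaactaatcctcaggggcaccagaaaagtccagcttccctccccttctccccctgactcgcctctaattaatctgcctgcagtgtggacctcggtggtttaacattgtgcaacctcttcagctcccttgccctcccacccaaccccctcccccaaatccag

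In Nfkbia the match began 29 bases before the start and read GGAANNNCCC on the printed strand, that is, the element lay on the opposite strand. In Nfkbie it began 106 bases before the start, on the strand of the gene. The windows of Ptx3, Rela and Birc3 had no match to these letters. Tnfaip3 has 2 annotated starts and Nfkb2 has 3, each with a window of its own, and every one of these 5 windows had a match, whose 10 bases are given here on the strand of the gene.
Tnfaip3, 12 bases before the start of window 1: GGAAATCCCC
Tnfaip3, 90 bases before the start of window 2: GGGTTATTCC
Nfkb2, 38 bases before the start of window 1: GGAATTCCCC
Nfkb2, 11 bases before the start of window 1: GGGGCTTTCC
Nfkb2, 236 bases before the start of window 2: GGAATGTCCC
Nfkb2, 225 bases before the start of window 3: GGGACTTTCC

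A match is a description of the letters in the window. Binding of NF-κB was not measured in these cells.

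The total per library was 17757341 to 32426739 counts, and 3 counts, taken as the floor of detection, corresponded to 0.0925 to 0.169 CPM (a gene's counts relative to the library total, with upper-quartile scaling). All 10 genes lay far above this floor. As to the identity of the cells, the keratins Krt8 (1030 to 1130 CPM) and Krt18 (479.8 to 568 CPM) were abundant, and so were Vim (1840 to 1970 CPM) and S100a4 (367 to 407 CPM), while the epithelial adhesion genes Epcam (1.24 to 2.41 CPM) and Cdh1 (0 to 0.0413 CPM) were low or near the floor. The summed level of these 6 markers was 3790 to 3870 CPM in P VITRO and 3880 to 3980 CPM in PTR VITRO. Of 6 markers of T and B cells, 3 (Ptprc, Cd3d and Ms4a1) were at 0 in every sample, and the sum of the 6 was 0.0856 to 0.165 CPM in P VITRO and 0.112 to 0.318 CPM in PTR VITRO. The 6 myeloid markers summed to 12.4 to 13.8 and 11.7 to 13.4 CPM, of which Cd68 made up nearly all and Adgre1 was at 0. The 4 endothelial markers summed to 0.207 to 0.2997 and 0.176 to 0.224 CPM.

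The first question was how the members differed between cells kept with anti-PD-L1 and cells kept with the isotype control. Nfkbiz and Ptx3 were lower in PTR VITRO, at 0.763 and 0.780 times the P VITRO mean, and in both genes the groups did not overlap. The other 8 genes, which include all 4 subunits and both cytoplasmic inhibitors, differed by less than the spread between replicates or close to it, with log2 fold changes from -0.13 (Birc3) to 0.04 (Nfkbia), and their groups overlapped. In bulk RNA, fewer expressing cells and less RNA per cell cannot be told apart. In all, 3 members were higher and 7 lower in PTR VITRO. The median of their log2 fold changes was -0.08, where the median over all genes tested was -0.00397 and 48.5% were higher.

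As a count, 2 of the 10 members had an adjusted p under 0.05 in the edgeR quasi-likelihood fit over all genes, where 35 of 14217 genes (0.246%) did, and the same 2 had an unadjusted p under 0.05, where 11.4% of all genes did. Groups did not overlap in 2 of the 10, both lower, where 17.6% of all genes did not overlap, 9.33% lower and 8.27% higher in PTR VITRO. The members were chosen on this comparison, so these counts are no test of them. The count of 2 was 0 when P VITRO replicate 3, PTR VITRO replicate 2 or PTR VITRO replicate 3 was left out. Over the 6 fits without 1 sample, Nfkbiz stayed between -0.43 and -0.34 on the log2 scale and Ptx3 between -0.38 and -0.31.

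**Figure D1:**
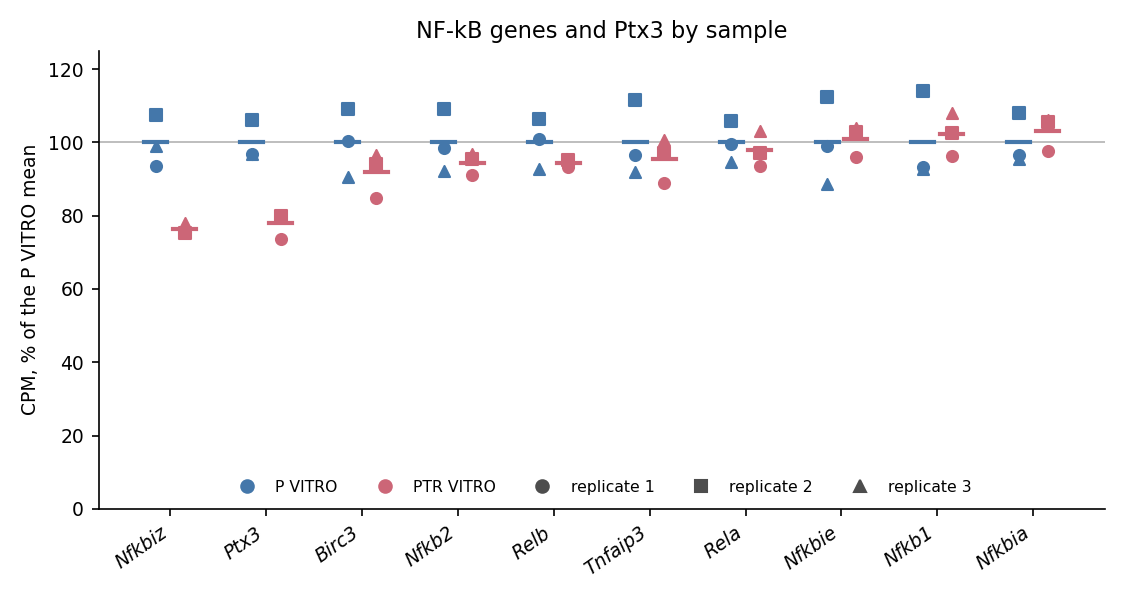
Each point is the CPM of a gene in 1 sample, in percent of its P VITRO mean (vertical axis), for P VITRO (blue) and PTR VITRO (red), with the marker shape giving the replicate number and the short line the group mean. All 3 PTR VITRO points lie below all 3 P VITRO points in Nfkbiz and Ptx3, and the groups overlap in the other 8 genes.

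The subunit genes come first. Nfkb1 (ENSMUSG00000028163.17, chr3:135584655-135691547, minus strand) encodes the precursor from which the DNA-binding subunit p50 is cut. It was at 163.3, 199.4 and 162.4 CPM in P VITRO replicates 1 to 3 and at 168.6, 179.6 and 188.9 CPM in PTR VITRO replicates 1 to 3. Replicate 2 was the highest sample of P VITRO and of all 6, and the PTR VITRO values fell between those of P VITRO. The means were 175.1 ± 21.1 and 179.0 ± 10.2 CPM (SD, n = 3 each), a log2 fold change of 0.03 (SE 0.0742). Nfkb2 (ENSMUSG00000025225.14, chr19:46304320-46312385, plus strand), the precursor of p52 in the non-canonical branch of the pathway, had 276.6, 306.4 and 258.8 CPM in P VITRO and 255.7, 267.7 and 271.5 CPM in PTR VITRO. P VITRO replicates 1 and 2 were above every PTR VITRO sample, and P VITRO replicate 3 lay among them. With means of 280.6 ± 24.1 and 265.0 ± 8.24 CPM, its log2 fold change was -0.08 (SE 0.0555). Exons of Nfkb2 share 299 bases with Psd on the opposite strand, whose level was 10.2% to 11% of that of Nfkb2. They share a further 531 bases with the opposite-strand lncRNA AC114539.1, whose level was not analysed here, and the strand setting used for counting is not given in the sources used here.

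Rela (ENSMUSG00000024927.7, chr19:5637483-5648130, plus strand) encodes p65, the transactivating partner of p50 in the canonical dimer. Its level was 150.3, 160.1 and 143.1 CPM in P VITRO and 141.4, 147.0 and 156.0 CPM in PTR VITRO. The lowest and the highest of the 6 samples were PTR VITRO replicate 1 and P VITRO replicate 2, and the groups overlapped over most of their range. The means were 151.2 ± 8.52 and 148.1 ± 7.35 CPM, a log2 fold change of -0.03 (SE 0.0505). Relb (ENSMUSG00000002983.17, chr7:19606217-19629438, minus strand), whose product pairs with p52, was at 115.5, 121.7 and 106.1 CPM in P VITRO and at 106.7, 109.1 and 108.5 CPM in PTR VITRO. The 3 PTR VITRO samples lay close together, and of P VITRO only replicate 3 was below them. The log2 fold change was -0.08 (SE 0.0499), from means of 114.4 ± 7.86 and 108.1 ± 1.22 CPM. Summed over the 4 genes, subunit transcripts came to 721.3 ± 60.2 (P VITRO) and 700.2 ± 26.3 CPM (PTR VITRO).

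Among the inhibitors, Nfkbia (ENSMUSG00000021025.8, chr12:55489410-55492647, minus strand) encodes IκBα, the inhibitor that is degraded and made again within one cycle of activation. It was at 120.8, 135.1 and 119.2 CPM in P VITRO and at 122.1, 132.1 and 132.7 CPM in PTR VITRO. All 3 PTR VITRO samples fell between the lowest and the highest P VITRO sample. Its means were 125.04 ± 8.74 and 128.9 ± 5.96 CPM, a log2 fold change of 0.04 (SE 0.0545). Nfkbie (ENSMUSG00000023947.7, chr17:45555703-45563169, plus strand), the gene of IκBε, had 128.9, 146.5 and 115.3 CPM in P VITRO and 125.1, 134.1 and 135.5 CPM in PTR VITRO. Here too the PTR VITRO samples lay inside the range of P VITRO, which was the wider group. The log2 fold change was 0.01 (SE 0.0732), with means of 130.3 ± 15.7 and 131.6 ± 5.64 CPM.

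Nfkbiz (ENSMUSG00000035356.16, chr16:55811375-55838899, minus strand) encodes IκBζ, a nuclear member of the family that binds p50 and is needed for a delayed set of targets. It was at 68.5, 78.6 and 72.6 CPM in P VITRO and at 55.3, 55.1 and 57.2 CPM in PTR VITRO. The PTR VITRO samples lay closer together than those of P VITRO, and all were below the lowest P VITRO sample. The means were 73.3 ± 5.10 and 55.9 ± 1.15 CPM, a log2 fold change of -0.39 (SE 0.0527). The 3 inhibitor-type transcripts together came to 328.5 ± 28.03 (P VITRO) and 316.4 ± 12.2 CPM (PTR VITRO), so the sum overlapped between groups although Nfkbiz did not.

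The feedback genes Tnfaip3 and Birc3 overlapped between the groups. Tnfaip3 (ENSMUSG00000019850.11, chr10:19000910-19015657, minus strand) encodes A20, which removes and edits ubiquitin chains on the adaptors of the receptor complexes. It was at 149.2, 172.8 and 142.3 CPM in P VITRO and at 137.8, 150.1 and 155.6 CPM in PTR VITRO. P VITRO replicate 2 was the highest sample and PTR VITRO replicate 1 the lowest, with the rest mixed. From means of 154.8 ± 15.98 and 147.9 ± 9.13 CPM, the log2 fold change was -0.07 (SE 0.0693). Birc3 (ENSMUSG00000032000.17, chr9:7848699-7873186, minus strand), the gene of cIAP2, a ubiquitin ligase of the same complexes, had 42.5, 46.2 and 38.4 CPM in P VITRO and 36.0, 39.8 and 40.9 CPM in PTR VITRO. Its groups overlapped, with P VITRO replicates 1 and 2 above all PTR VITRO samples. The means were 42.3 ± 3.91 and 38.9 ± 2.58 CPM, a log2 fold change of -0.13 (SE 0.0719). Birc3 was the only member whose estimated counts were not whole numbers, in all 6 samples, as RSEM gives where reads can be placed in more than 1 way. With the counts of its close relative Birc2 added, the total of the pair was 68.8 ± 6.13 (P VITRO) and 61.7 ± 1.03 CPM (PTR VITRO).

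Ptx3 (ENSMUSG00000027832.5, chr3:66219910-66225805, plus strand) encodes a long pentraxin, a secreted pattern-recognition protein that binds complement components and stabilises hyaluronan-rich matrix, and its gene is a known target of NF-κB. It was at 599.4, 656.9 and 599.0 CPM in P VITRO and at 456.0, 494.2 and 496.5 CPM in PTR VITRO. Every PTR VITRO sample was below every P VITRO sample, and the gap between the groups was wider than the range of either. The means were 618.4 ± 33.3 and 482.2 ± 22.8 CPM, a log2 fold change of -0.36 (SE 0.0463).

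Because the members shared part of their variation between samples, Nfkbiz and Ptx3 were also expressed relative to the geometric mean of the other 8 genes. That mean was 129.2, 144.3 and 121.6 CPM in P VITRO and 122.1, 130.0 and 133.2 CPM in PTR VITRO, a ratio of 0.975 between groups. On this scale Nfkbiz was at 0.530, 0.545 and 0.597 in P VITRO and at 0.453, 0.424 and 0.429 in PTR VITRO. Ptx3 was at 4.64, 4.55 and 4.92 times the mean of the other genes in P VITRO and at 3.74, 3.801 and 3.73 times in PTR VITRO. The PTR VITRO samples lay below all P VITRO samples in both genes, and the ratios between groups were 0.781 for Nfkbiz and 0.798 for Ptx3. Nfkbiz and Ptx3 were set apart from the other 8 genes with their group difference known. This scale is therefore a description and no check of that difference. On the same scale the ratios of the 8 reference genes ran from 0.933 (Birc3) to 1.06 (Nfkbia).

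Levels were then compared between genes as CPM per kilobase of exon, averaged over all 6 samples. Ptx3 was by far the highest at 205 CPM per kb, followed by Nfkbia (78.9), Nfkb2 (59.5), Rela (48.7), Nfkbie (43.0), Relb (28.6), Tnfaip3 (20.9), Nfkb1 (14.7), Nfkbiz (12.9) and Birc3 (8.11 CPM per kb). The ranges over the 6 samples overlapped for 2 pairs of neighbours only. Rela and Nfkbie overlapped in range, although Rela was higher in 6 of 6 samples. Nfkb1 and Nfkbiz overlapped and were not in the same order in each group. The ratio Nfkbiz over Nfkb1 was 1.01 ± 0.0634 (P VITRO) and 0.751 ± 0.0322 (PTR VITRO), and its groups did not overlap. This ratio holds the difference of Nfkbiz on which the members were chosen, and no share over other gene pairs was computed. The order depends on the length used. With the longest transcript of each gene (4149 bases for Nfkb1) in place of all its exons (12061 bases), 7 of 10 genes kept their place, but Nfkb1 came to 42.7 CPM per kb, in place 6, between Nfkbie (43.5) and Relb (34.0 CPM per kb).

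**Figure D2:**
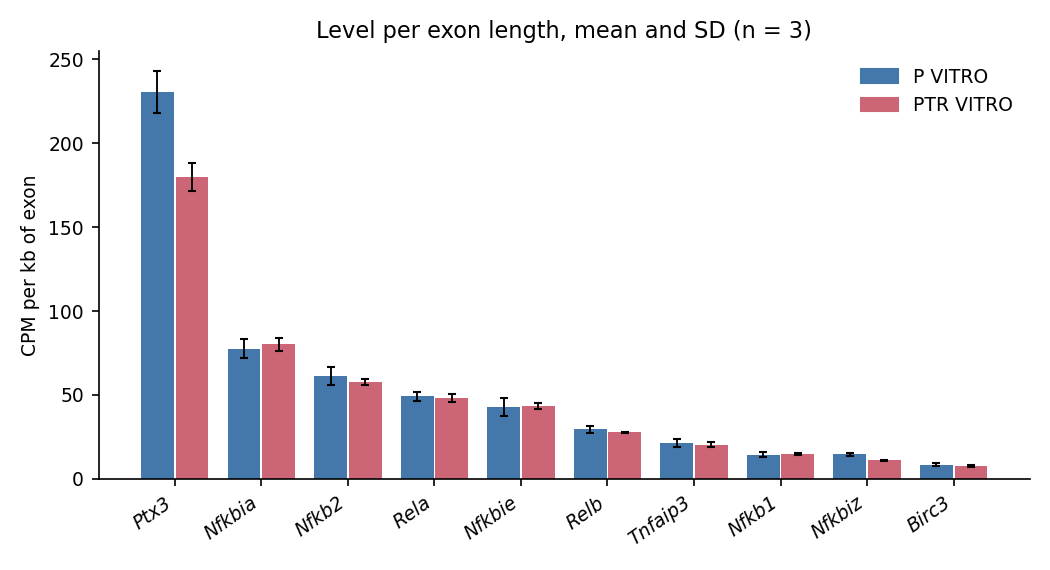
Bars give the mean level in CPM per kilobase of exon (vertical axis, from 0) of each gene in P VITRO (blue) and PTR VITRO (red), and error bars the SD over 3 samples. Ptx3 was at 231 ± 12.4 in P VITRO and 179.8 ± 8.48 in PTR VITRO, above every other gene, and Birc3 was the lowest.

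Ratios between 2 members were formed from the same per-kilobase levels. Nfkbia over Rela was 1.53, 1.61 and 1.59 for P VITRO, as against 1.65, 1.71 and 1.62 for PTR VITRO, with means of 1.58 ± 0.0395 and 1.66 ± 0.0474. Between the precursors, Nfkb2 over Nfkb1 was 4.46, 4.04 and 4.19 against 3.99, 3.92 and 3.78, with means of 4.23 ± 0.210 and 3.90 ± 0.107. The groups did not overlap in either ratio, and they overlapped in each of the 4 genes taken alone. They overlapped in the other 3 of the 6 ratios formed, with means of 0.867 ± 0.0553 and 0.896 ± 0.0223 for Nfkbie over Rela, 0.598 ± 0.0110 and 0.578 ± 0.0247 for Relb over Rela, and 0.294 ± 0.0208 and 0.308 ± 0.00374 for Nfkb1 over Rela. No test was made of these ratios, which are built from the members, and their size depends on the length taken for each gene. The share of other gene pairs with non-overlapping ratios was not computed, so nothing is read from overlap or its absence.

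Within a group, the members rose and fell together from sample to sample. This pattern was chosen after its values had been seen, and is given as a description. In P VITRO, replicate 2 was above the group mean in 10 of 10 members, replicate 3 in 0 and replicate 1 in 2. In PTR VITRO, replicate 3 was above the mean in 10, replicate 2 in 8 and replicate 1 in 0. Averaged over the members, the deviation from the group mean of log2 CPM was -0.03, 0.13 and -0.09 in P VITRO and -0.07, 0.02 and 0.05 in PTR VITRO. The libraries held 23417980, 30115549 and 24362143 counts in P VITRO and 32426739, 28122430 and 17757341 counts in PTR VITRO. The deepest library was the highest for these genes in P VITRO and the lowest in PTR VITRO. An effect of depth on this pattern was not tested.

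**Figure D3:**
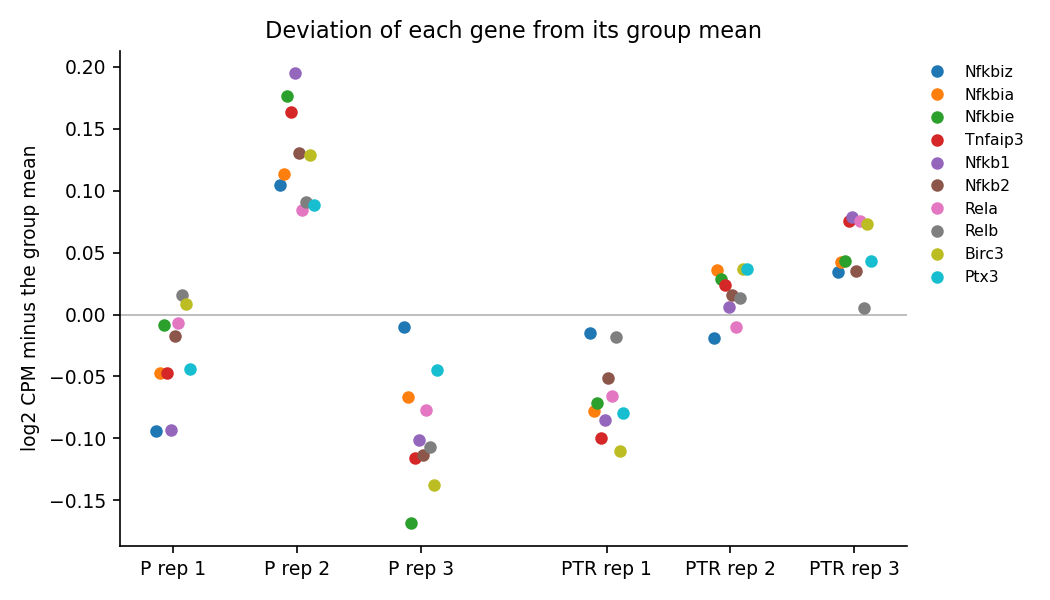
Points give, for each of the 10 genes (colours), log2 CPM minus the mean of its own group (vertical axis, log2 units) in each of the 6 samples. The points of P VITRO replicate 2 and PTR VITRO replicate 3 are all above 0, and those of P VITRO replicate 3 and PTR VITRO replicate 1 are all below it.

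Over these 6 deviations, of which 4 are free, the correlation was positive for 45 of 45 pairs of members, with a median r of 0.898 (range 0.444 to 0.996). Over all pairs of 11804 genes the median was 0.0135, and 50.7% were positive. All points share their libraries, their depth and their scaling, and with TMM scaling the median of the members was 0.914. Set against the average of the other 9 members, r was above 0.8 for 9 of 10 genes, from 0.85 (Relb) to 0.997 (Tnfaip3), and was 0.697 for Nfkbiz. Of the 11794 other genes, which were set against the average of all members, 10.3% were above 0.8. The spread of most members was above that of the median gene. The SD within groups was 0.0714 to 0.133 log2 units for the members (median 0.0886) and 0.0744 for the median gene.

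Other genes of the pathway were set against the average of all members, beside the 10.3% of all genes above 0.8. No test compares the lists. Of the other subunits and inhibitors, 8 of 17 were above 0.8 (47.1%), led by the deubiquitinase Cyld (0.989), the ubiquitin ligase Itch (0.952) and the A20-binding proteins Tnip3 (0.941) and Tnip1 (0.912). Of the target genes, 10 of 34 were (29.4%), among them Csf1, the growth factor of macrophages (0.991), Ptgs2, the inducible cyclooxygenase (0.977), and the chemokine Ccl2 (0.96). Adaptors and kinases had 5 of 28 (17.9%), with Traf1 (0.974) the highest, ligands and receptors 2 of 13 (15.4%), and the pentraxins and partners of Ptx3 1 of 6, the hyaluronan-binding Tnfaip6 (0.903). Each list also held genes that went the other way, such as the kinase Irak4 (-0.952) and the receptor Tlr2 (-0.899), and the median r of the adaptors and kinases was 0.0255, beside 0.664 for the other subunits and inhibitors and 0.552 for the target genes. Over all 11794 genes the median r was -0.189, and 42.6% were positive. Csf1 was at 2318 ± 230.4 (P VITRO) and 2303 ± 143.9 CPM (PTR VITRO), and Traf1 at 239.96 ± 33.1 and 254.2 ± 13.98 CPM, so the difference between the groups was smaller than the SD of P VITRO in both genes.

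Across all 6 samples, the order of likeness was different, since the step between the groups then counts as well. Among 11803 genes, those most like Nfkbiz included Cited2 (r = 0.998), Col12a1 (0.993), Slc16a14 (0.985) and H2-Q10 (0.984), a member of a family of near-identical genes. Ptx3 was most like H3f3b, Gm5421 (both 0.999), B3galt6 (0.996), Mmadhc and Gm43305 (both 0.992). Nfkbiz and Ptx3 had r = 0.975 with each other, which put Ptx3 at rank 17 for Nfkbiz and Nfkbiz at rank 24 for Ptx3. Over the same samples r between Nfkbiz and Nfkbia was -0.0853. These values hold the difference between groups on which the members were chosen. Within groups, r was 0.737 for Nfkbiz with Ptx3 and 0.760 for Nfkbiz with Nfkbia.

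The second question was whether other genes of the pathway differed between the groups. From 5 lists of genes by role, 103 genes were tested, and 1 was called by edgeR's quasi-likelihood test with Benjamini-Hochberg adjustment over all genes. This was Cxcl5, a chemokine that attracts neutrophils, which was lower in PTR VITRO. The median log2 fold change over the 103 genes was -0.0096, beside -0.00397 for all genes tested. As the background of the counts by list that follow, 748 of all 14217 genes were higher and 872 lower at an unadjusted p under 0.05.

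Target genes comprised 38 tested genes, 22 higher and 16 lower. The list's median log2 fold change was 0.01, and ranged from -0.0211 to 0.0427 with 1 sample left out. Of the 38 genes, 1 was called, and at an unadjusted p under 0.05 the count was 1 higher and 7 lower. Cxcl5 (ENSMUSG00000029371.7) was at 226, 221 and 210.4 CPM in P VITRO and at 158, 181 and 172 CPM in PTR VITRO. All PTR VITRO samples lay below all P VITRO samples. The means were 219 ± 7.96 and 170.15 ± 11.7 CPM, which on the log2 scale is a change of -0.37 (SE 0.0511, adjusted p = 0.0180 by edgeR). The call was lost without P VITRO replicate 1 (edgeR adjusted p = 0.0850), without P VITRO replicate 3 (0.0781) and without PTR VITRO replicate 3 (0.0795), over a range of 1.01e-12 to 0.0850 in all alternatives.

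Among the remaining targets, Ccl20, a chemokine for CCR6-bearing cells, was at 5.54 ± 0.407 (P VITRO) and 4.14 ± 0.591 CPM (PTR VITRO), with an edgeR adjusted p of 0.256. At the other end of the list, Nos2, the inducible nitric oxide synthase, differed by 0.21 on the log2 scale (edgeR adjusted p = 0.680) and the chemokine Ccl5 by 0.19 (0.448). Neither passed the test. The inflammatory genes Ccl2, Il6 and Lcn2 had log2 fold changes of 0.10, -0.08 and 0.08, with edgeR adjusted p of 0.728, 0.895 and 0.490. With 1 sample left out, the log2 fold change of Ccl2 ranged from -0.00753 to 0.223, Il6 from -0.20 to -0.00511, Lcn2 from 0.06 to 0.12 and Nos2 from 0.0787 to 0.297. Chosen after their values were seen, the neutrophil chemokines Cxcl2 (178 ± 5.82 to 153 ± 4.29 CPM, edgeR adjusted p = 0.0515) and Cxcl1 (389 ± 14.7 to 354 ± 14.1 CPM, 0.219) and the acute-phase gene Saa3 (11.9 ± 0.243 to 9.77 ± 0.479 CPM, 0.178) had groups that did not overlap, with lower values in PTR VITRO, and did not pass the adjusted threshold. Cxcl3, a neutrophil chemokine of the same list, had the opposite sign, at 55.3 ± 6.19 (P VITRO) and 62.2 ± 6.37 CPM (PTR VITRO), with overlapping groups and an edgeR adjusted p of 0.526. Over the whole list, groups did not overlap in 1 gene with higher and 7 genes with lower values in PTR VITRO, of 38, beside 8.27% and 9.33% of all genes tested.

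Ligands and receptors had 14 of 21 genes tested, with a median log2 fold change of -0.05 and no gene called by edgeR (0), DESeq2 (0) or limma-voom (0). At an unadjusted p under 0.05, 0 were higher and 4 lower. Groups did not overlap in 1 gene with higher values in PTR VITRO, which was Tnf, and in 5 genes with lower values. Among all genes tested the shares were 8.27% and 9.33%. Tnf, the prototype activator of the pathway, was at 48.7 ± 1.85 (P VITRO) and 52.1 ± 1.10 CPM (PTR VITRO), a difference of 0.10 on the log2 scale (edgeR adjusted p = 0.448). Its receptor-family relative Cd40 had 0.10 (0.662), and the pattern-recognition receptors Tlr2 and Tlr3 had -0.19 (0.275) and -0.18 (0.408). With 1 sample left out, the value of Cd40 ranged from 0.03 to 0.18. Tlr2 was at 36.4 ± 2.55 and 31.7 ± 1.44 CPM. Of the ligands, Lta, Ltb, Il1a, Il1b, Tnfsf11 and Cd40lg were too low to be tested.

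All 28 adaptors and kinases were tested. None was called (edgeR 0, DESeq2 0, limma-voom 0), 1 was higher and 2 lower at an unadjusted p under 0.05, and the median log2 fold change was -0.02. That median ranged from -0.0368 to 9.17e-06 with 1 sample left out. The largest decreases in value were those of Birc2, which encodes cIAP1 (-0.21, edgeR adjusted p = 0.348), and Rnf31, the catalytic subunit of the linear ubiquitin ligase (-0.12, 0.658). The largest increases were those of Malt1, a paracaspase that signals to IκB kinase (0.18, 0.426), and Tab3, an adaptor of the kinase TAK1 (0.10, 0.631). These 4 genes did not pass the test. Rnf31 ranged from -0.17 to -0.05 and Tab3 from 0.06 to 0.15 with 1 sample left out.

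Of the other subunits and inhibitors, 17 of 18 genes were tested, 0 were called by edgeR, DESeq2 or limma-voom, and 0 had an unadjusted p under 0.05 in either direction. The median was -0.02, and ranged from -0.0440 to 0.0116 with 1 sample left out. Tnip2 (-0.24, edgeR adjusted p = 0.589) and the RNase gene Zc3h12a (-0.12, 0.640) were at the lower end, and Rc3h1, which encodes Roquin-1 (0.05, 0.720), and Tnip3 (0.08, 0.699, and 0.02 to 0.16 with 1 sample left out) at the upper end. Zc3h12a ranged from -0.20 to -0.05 and Rc3h1 from 0.02 to 0.08 in the same fits. The remaining inhibitor gene, Nfkbid, had no counts in any sample and was not tested.

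The list of pentraxins and partners of Ptx3 had 6 of 15 genes tested, and the other 9 did not pass the filter. Of those, the short pentraxins Crp and Apcs and the neuronal pentraxins Nptx1 and Nptx2 had no counts, and Has3, Itih1, Itih3, Itih4 and Itih5 had few. No gene was called (edgeR 0, DESeq2 0, limma-voom 0), and 1 was higher at an unadjusted p under 0.05. Itih2, a heavy chain that is transferred to hyaluronan in the matrix that Ptx3 binds, was at 43.8 ± 2.20 (P VITRO) and 50.5 ± 2.24 CPM (PTR VITRO), a difference of 0.20 on the log2 scale (edgeR adjusted p = 0.175). It was called with no filter on low counts (edgeR adjusted p = 0.0267, over a range of 0.0267 to 0.486 in all alternatives). Tnfaip6, the enzyme of that transfer, had 0.05 (0.872). The hyaluronan synthases Has1 and Has2 had -0.21 (0.666) and -0.08 (0.608). With 1 sample left out, the values ranged from 0.000309 to 0.15 for Tnfaip6, from -0.31 to -0.14 for Has1 and from -0.11 to -0.05 for Has2. The median of the list was 0.02, and ranged from -0.0564 to 0.0645 with 1 sample left out.

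**Figure D4:**
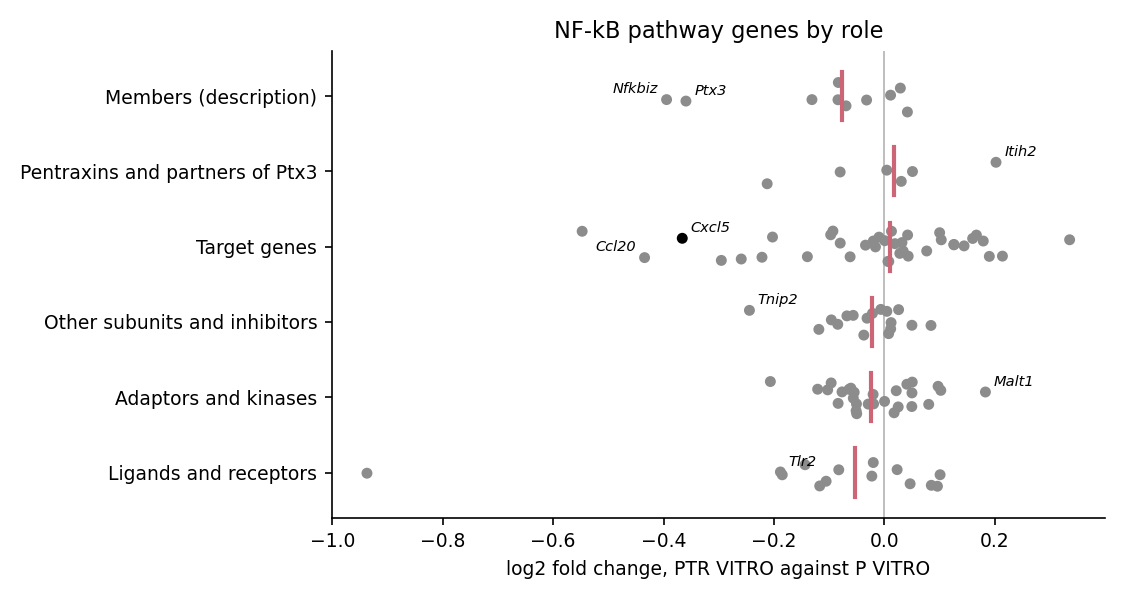
Points are log2 fold changes of PTR VITRO against P VITRO (horizontal axis) of the tested genes of each list, with the 10 members in the top line and the red line at the median of each list. Black marks a called gene in the 5 pathway lists, and is not used for the members. Of the 5 lists, Cxcl5 at -0.37 is the one called gene, the members Nfkbiz and Ptx3 lie at -0.39 and -0.36, and the medians of the 5 lists lie between -0.05 and 0.02.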

How the data were processed

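Polyadenylated RNA of 6 EMT6 samples had been prepared with a stranded kit. Per the labels' processing notes, the authors used FastQC 0.11.5, STAR 2.6.0a and RSEM 1.3.1 on GRCm38. The deposited values are the authors' RSEM estimated counts per gene, with no scaling between libraries, and the strand setting is not given in the sources used here. Gene positions and exon lengths came from GENCODE M21, of the same build, which placed 53360 of 53465 identifiers without their version.

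Here the counts were rounded, filterByExpr (minimum count 10, total 15) removed low genes, and upper-quartile factors were applied, as in the study. PTR VITRO was set against P VITRO in edgeR 4.0.16 (R 4.3.3) by its quasi-likelihood test, without covariates. The Benjamini-Hochberg adjustment ran over 14217 genes, and an adjusted p under 0.05 was called. The tested genes held 99.93% of all counts, and the common biological coefficient of variation was 5.00%. The fit was tested on simulated data. Standard errors came from the F statistic. Correlations used log2(CPM + 0.25) and genes with a mean count of at least 50.

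The members and lists were chosen with earlier results of these data known. Named genes were the members, each gene called in a list, the 2 highest and 2 lowest fold changes of each list at a mean count of at least 50, Ccl2, Il6 and Lcn2, and the 5 genes most correlated with Nfkbiz and with Ptx3. Of these, 1 gene is not reported here. Others were chosen after their values were seen, including those named for their correlation within groups.

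Other settings tried were DESeq2 1.42.0, limma-voom (limma 3.58.1), TMM or no scaling, a block for the replicate number, no filter, a minimum of 10 counts in each sample, and each sample left out. Promoter sequences are RefSeq's on GRCm38.p6.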

Additional observations from a re-analysis of the deposited data

How the results depend on the processing

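The fold changes of the 10 members moved by less than the replicate SD under all 7 other settings and all 6 fits without 1 sample. With 1 sample left out, the sign turned for 4 members with small values: Tnfaip3 without P VITRO replicate 2 (0.0185), Rela without replicate 2 of P VITRO (0.0119) or replicate 1 of PTR VITRO (0.00212), Nfkb1 without P VITRO replicate 1 (-0.0136), replicate 3 of P VITRO (-0.0202) or replicate 3 of PTR VITRO (-0.00563), and Nfkbie without P VITRO replicate 3 (-0.0668), replicate 2 of PTR VITRO (-0.0016) or replicate 3 of PTR VITRO (-0.00531). The 35 genes called over all genes (14 higher, 21 lower) became 111 with DESeq2 (43 and 68), 400 with no filter on low counts (163 and 237) and 54 when each sample had to hold 10 counts or more (35 lower), and ran from 8 to 64 without 1 sample (0 to 19 higher, 6 to 45 lower). The 1 called target gene became 2 with DESeq2, 3 with no filter, 2 under that minimum in each sample, and 0 to 1 without 1 sample. With no filter, 1 gene of the pentraxin list was called, Itih2. The fold change of Ccl2 ran from -0.00753 without P VITRO replicate 3 to 0.223 without P VITRO replicate 2. The cause of these changes was not tested.

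The labels do not say whether same-numbered samples were paired, and this was not settled here. Same-numbered samples correlated in their deviations at 0.148, 0.0893 and -0.045. The P VITRO sample with the highest correlation was replicate 1 for PTR VITRO replicate 1, and replicate 2 for PTR VITRO replicates 2 and 3. The fit with a replicate block called 68 genes (25 higher, 43 lower), 2 of them target genes. The effect of depth on the counts of calls was not tested.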
